A study of Rattus norvegicus with 129 samples.

Results

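The cell cycle genes described here are 43 genes chosen by name, with no use of their measured values: 19 that act at the G1/S transition or in DNA replication, 22 that act in G2 and mitosis, and the 2 cyclin-dependent kinase (CDK) inhibitors Cdkn1a and Cdkn1b. Earlier results of these data were known when the genes were chosen. They were measured in rat liver RNA on 3 Affymetrix array types. In all, 40 of the 43 had a probe set of their own, among 14371 genes measured in the series: 17 of G1/S and replication, 21 of G2 and mitosis, and both inhibitors. Cdc6 and Tpx2 were not measured, and Rrm2 was read only by probe sets that its copy Rrm2l1 shares. The oldest array type held 22 of the genes, the Wy-14643 array 34, the PFOA and PFOS array 40, and all 3 held 20 of them. Phenobarbital, PCN, the D3T diet and the PFOS exposure of 3 weeks were all read on the oldest type.

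The 129 arrays, each of 1 rat, formed 31 groups in 5 studies, and every treated group was compared with its own control. In the first study, male and female Sprague-Dawley rats received vehicle (aqueous methylcellulose with Tween 80), phenobarbital or pregnenolone 16α-carbonitrile (PCN), each at 100 mg/kg by gavage. Livers were taken 6 h or 24 h after 1 dose, or 24 h after 5 daily doses, from 5 rats of each sex, agent and time, with ages not given in the labels. In the second, 4 female Sprague Dawley rats, 4 weeks old at the start, ate mash diet with 3H-1,2-dithiole-3-thione (D3T) at 600 mg/kg diet, and 4 ate the same diet without it. In the third, 2 female Sprague-Dawley rats of 60 days received perfluorooctane sulfonate (PFOS) at 5 mg/kg daily by gavage for 3 weeks, and 2 received Tween-20 vehicle. In the fourth, male Sprague-Dawley rats of 10 weeks received perfluorooctanoic acid (PFOA) at 20 mg/kg/day, PFOS at 10 mg/kg/day or Alkamuls EL-620 vehicle by gavage, 3 rats each, for a time that the labels do not state. In the fifth, male Wistar Hanover rats received Wy-14643 at 60 mg/kg/day or carboxymethyl cellulose vehicle for 1, 3 or 7 days, 3 rats each. The labels of rat 06, in the Wy-14643 group of 3 days, state no dose.

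Most hepatocytes of an adult liver do not divide, and they can re-enter the cell cycle after tissue loss or under some drugs. D cyclins with Cdk4 and cyclin E with Cdk2 drive a cell through G1 into S phase, where the MCM helicase, Pcna and the enzymes of nucleotide synthesis act in DNA replication. Cdk1 with B cyclins then drives entry into mitosis, Aurora kinases and spindle proteins separate the chromosomes, and Cdc20 with Ube2c directs the breakdown of cyclins, while Cdkn1a (p21) and Cdkn1b (p27) hold CDKs back. Phenobarbital activates the nuclear receptor CAR, PCN activates PXR, Wy-14643 activates PPARα, and D3T induces NRF2 target genes.

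Promoter windows from RefSeq, of assembly GRCr8, each running from 250 bases before to 50 bases after a gene's start, were in the table for 33 of the 43 genes. The following words were searched on both strands, and matches may overlap. TTTGAA is the core of the cell cycle homology region, an element that many mitotic promoters carry. CCAAT is the box that often lies near it, and TTTGGCGC, TTTCCCGC, TTTCGCGC and TTTGCCGC are words of the kind that E2F factors bind. TTTGAA was in 18.3% of all 33469 windows, in 13 of 18 windows of G2 and mitosis genes (72.2%), and in 1 of 13 windows of G1/S and replication genes (7.69%), that of Mcm2. The homology region core and the CCAAT box together were in 7.41% of all windows, in 11 of 18 windows of the mitotic genes (61.1%) and in 0 of 13 of the G1/S genes. The order was the other way round for the E2F words, which were in 2.14% of all windows, in 6 of 13 windows of the G1/S genes (46.2%) and in 2 of 18 of the mitotic genes (11.1%). A match is a description of these letters only. The windows below are shown because the results turn on these genes. Capitals mark the searched letters on either strand, so a word may appear as its reverse complement.
Cdk1, chr20:19265043-19265342, plus strand: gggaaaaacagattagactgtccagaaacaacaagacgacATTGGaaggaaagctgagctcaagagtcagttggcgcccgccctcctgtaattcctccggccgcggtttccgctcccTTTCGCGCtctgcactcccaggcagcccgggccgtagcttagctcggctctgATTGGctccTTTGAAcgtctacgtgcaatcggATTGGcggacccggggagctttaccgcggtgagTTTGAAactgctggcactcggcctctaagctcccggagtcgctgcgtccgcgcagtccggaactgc
Stmn1, chr5:151964929-151965228, plus strand: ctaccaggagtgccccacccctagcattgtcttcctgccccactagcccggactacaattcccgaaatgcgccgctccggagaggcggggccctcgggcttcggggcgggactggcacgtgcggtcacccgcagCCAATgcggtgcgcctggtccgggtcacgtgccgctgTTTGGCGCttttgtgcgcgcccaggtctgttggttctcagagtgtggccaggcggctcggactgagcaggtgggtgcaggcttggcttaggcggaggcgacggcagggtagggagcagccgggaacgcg
Cdc20, chr5:137255750-137256049, minus strand: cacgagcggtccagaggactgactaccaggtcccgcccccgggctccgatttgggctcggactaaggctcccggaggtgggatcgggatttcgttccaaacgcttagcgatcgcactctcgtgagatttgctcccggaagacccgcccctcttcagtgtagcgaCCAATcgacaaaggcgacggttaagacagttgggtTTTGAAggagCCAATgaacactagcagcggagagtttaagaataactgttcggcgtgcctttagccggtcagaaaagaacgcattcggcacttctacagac
Top2a, chr10:84473044-84473343, minus strand: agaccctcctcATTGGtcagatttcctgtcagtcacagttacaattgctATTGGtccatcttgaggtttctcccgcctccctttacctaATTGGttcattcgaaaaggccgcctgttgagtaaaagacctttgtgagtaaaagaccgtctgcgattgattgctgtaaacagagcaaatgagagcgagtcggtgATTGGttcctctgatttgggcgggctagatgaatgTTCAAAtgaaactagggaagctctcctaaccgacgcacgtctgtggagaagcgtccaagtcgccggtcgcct
Mcm6, chr13:42404303-42404602, minus strand: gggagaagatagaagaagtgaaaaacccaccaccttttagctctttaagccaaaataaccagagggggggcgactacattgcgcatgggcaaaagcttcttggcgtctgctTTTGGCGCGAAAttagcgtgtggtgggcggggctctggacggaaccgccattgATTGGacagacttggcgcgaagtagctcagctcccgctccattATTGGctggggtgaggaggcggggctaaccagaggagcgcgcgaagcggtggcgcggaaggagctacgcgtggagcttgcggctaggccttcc
Ccne1, chr1:99927860-99928159, minus strand: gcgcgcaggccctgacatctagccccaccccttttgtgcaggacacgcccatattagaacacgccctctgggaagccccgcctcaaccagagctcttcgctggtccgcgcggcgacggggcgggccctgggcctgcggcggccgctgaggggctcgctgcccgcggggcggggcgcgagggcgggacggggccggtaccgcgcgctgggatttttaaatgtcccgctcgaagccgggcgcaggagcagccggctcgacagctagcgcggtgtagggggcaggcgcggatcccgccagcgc

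In these lines Cdk1, the kinase of mitotic entry, had the homology region core, the CCAAT box and an E2F word, whereas Stmn1 (stathmin, which destabilizes microtubules) had the CCAAT box and an E2F word but not the core. Cdc20 and Top2a, the topoisomerase that untangles replicated chromosomes, had the core with the CCAAT box and no E2F word. Mcm6, a subunit of the replicative helicase, had the CCAAT box and overlapping E2F words on opposite strands. Ccne1 (cyclin E1) had none of the searched letters in this window.

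Values are array intensities, set here as log2(intensity + 16) and called levels, and a change is a difference of group means on that scale with its standard error (SE). An intensity of 0 or less takes the floor level of 4.00. On this scale the change of a dim gene is understated. A gene is said to have risen or fallen where the adjusted p was under 0.05 in limma, adjusted over all probe sets of the array. The mean intensity per array ran from 93.3 to 614, and 15.2% to 32.6% of probe sets on an array lay at or under 0. A male vehicle rat of 6 h (rat 1003) stood apart, with a median Spearman correlation with the other arrays of 0.58 where the other 89 had 0.91 to 0.94, and it was left out. The labelled tissue matched its markers: hepatocyte genes lay between the 93.3rd and the 100th percentile of all tested probe sets in each study. In bulk liver, fewer cells of a type and less RNA per cell cannot be told apart.

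Among the 19 treated groups, only the rats given Wy-14643 for 1 or 3 days showed a rise of many cell cycle genes. Array types and group sizes differ among the studies, so the number of calls does not compare the agents. After 1 day, 18 of 34 measured members rose and 0 fell, beside 6.87% of all genes that rose and 5.98% that fell. After 3 days, 19 of 34 rose and 0 fell, beside 6.13% and 5.81%. After 7 days, 0 rose and 1 fell (3 at an unadjusted p under 0.05 in limma), beside 7.11% and 7.52%. The median change over the members was 1.22 at 1 day, 1.11 at 3 days and 0.12 at 7 days, and that over all genes was 0.00 at each time. Of the 18 and the 19 genes, 15 were the same, 10 of them of G2 and mitosis. When rat 07 or rat 08 of the treated group of 3 days was left out, 11 members passed at 3 days, and 8 passed when only the groups of that day were fitted.

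**Figure D1:**
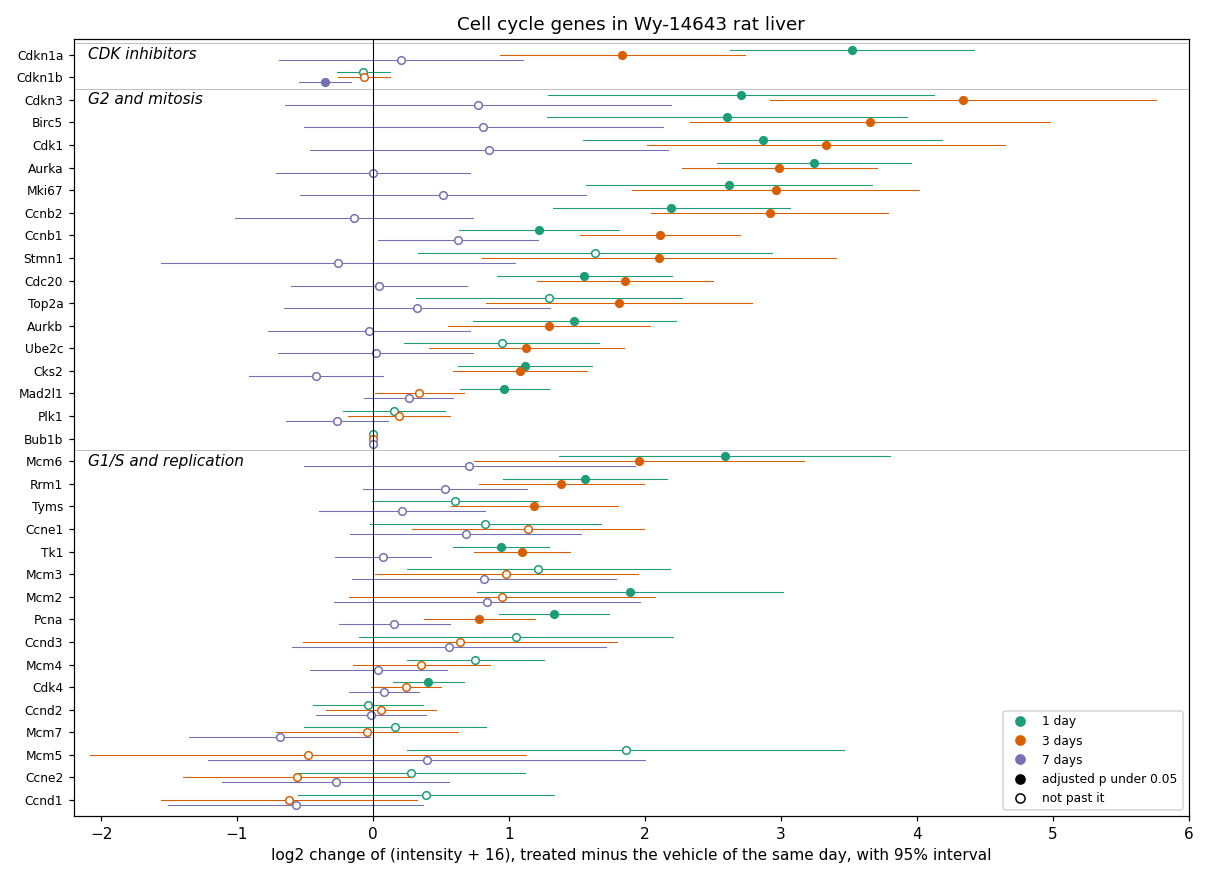
Log2 change of each of 34 measured cell cycle genes in Wy-14643 rat liver (treated minus vehicle of the same day, 3 rats each), with 95% interval bars, for 1, 3 and 7 days. Filled points passed adjusted p 0.05. Most filled points belong to G2 and mitosis genes at 1 and 3 days, and at 7 days only Cdkn1b is filled, below 0.

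Most of the genes that rose act in G2 and mitosis. Of 16 measured G2 and mitosis genes, 11 rose at 1 day and 13 at 3 days, with medians of 1.52 and 1.98. Cdk1 stood at 6.19, 6.86 and 7.47 in vehicle rats and at 9.54, 9.75 and 9.83 in treated rats of 1 day, a change of 2.87 ± 0.61 (SE, n = 3 each; 7.29-fold, adjusted p = 0.00907). At 3 days its levels were 5.47, 6.36 and 7.26 in vehicle rats and 9.38, 9.62 and 10.09 in treated rats, a change of 3.33 ± 0.61 (10.1-fold, adjusted p = 0.00414). At both times every treated rat lay above every vehicle rat, and at 7 days the groups overlapped. The levels of 7 days were 4.93, 5.72 and 6.53 with vehicle and 5.60, 6.19 and 7.96 with Wy-14643, a change of 0.85 ± 0.61 (adjusted p = 0.434).

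Aurka, the Aurora kinase of the spindle poles, was at the floor in 2 vehicle rats of 1 day and at 4.72 in the other, and at 6.99, 7.22 and 8.25 in treated rats (3.24 ± 0.33, adjusted p = 5.85e-05). At 3 days all vehicle rats were listed at 0 or less and the treated rats were at 6.35, 7.00 and 7.63 (adjusted p = 0.000152, with no fold given). At 7 days all 6 rats, vehicle and treated, were listed at 0 or less, so Aurka was seen in treated liver at 1 and 3 days and not detected at 7 days. Birc5 (survivin, of the chromosomal passenger complex) was also at the floor in all vehicle rats of 3 days, against 7.37, 7.43 and 8.17 in treated rats (adjusted p = 0.00236). Its change at 1 day was 2.60 ± 0.61 (adjusted p = 0.0154), a call that held in 6 of 11 alternatives. Among those that ended it were pseudocount 1 and the removal of vehicle rat 22 or 24 or treated rat 03.

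Cdkn3, a phosphatase that acts on CDKs, stood at 4.00, 4.00 and 5.60 in vehicle rats of 3 days and at 8.54, 8.84 and 9.25 in treated rats, with no overlap (4.34 ± 0.66, adjusted p = 0.00129). With 2 of 3 vehicle rats at the floor the size of this change depends on the pseudocount (2.82 to 7.14 over the alternatives), and no fold is given. At 1 day it rose by 2.71 ± 0.66 (6.52-fold, adjusted p = 0.0184), a call that ended with pseudocount 1 and without vehicle rat 24 or treated rat 03 or 05. Mki67 (Ki-67, the common marker of proliferating cells) rose by 2.62 ± 0.49 at 1 day (6.15-fold, adjusted p = 0.00413) and by 2.96 ± 0.49 at 3 days (7.79-fold, adjusted p = 0.00215). The B cyclins followed the same course: Ccnb2 rose by 2.19 ± 0.40 and 2.92 ± 0.40 (4.58-fold and 7.57-fold, adjusted p = 0.00379 and 0.000694). Ccnb1 rose by 1.22 at 1 day (a call lost without vehicle rat 24) and by 2.11 ± 0.27 (4.32-fold at 3 days, adjusted p = 0.000445). All 3 treated rats of Mki67, Ccnb1 and Ccnb2 were above all 3 vehicle rats at 1 and 3 days.

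Cdc20, the activator of the anaphase-promoting complex, stood at 7.28, 7.68 and 7.80 with vehicle and at 9.09, 9.09 and 9.24 with Wy-14643 at 1 day (1.56 ± 0.30, adjusted p = 0.00496). At 3 days it stood at 6.82, 7.36 and 7.61 against 8.74, 9.06 and 9.53 (1.85, adjusted p = 0.00192), and at 7 days the groups overlapped, with 7.02, 7.10 and 7.15 against 6.51, 7.07 and 7.82. Its 4 other probe sets did not all show this. At 1 and 3 days 1 gave 3.99 and 3.94 and passed at both, 1 gave 1.02 and 0.87 and passed at 1 day only, and 2 gave 0.31 and -0.32, and 0.12 and 0.14, and did not pass. Stmn1 stood at 7.76, 8.05 and 8.96 with vehicle and 9.82, 9.88 and 9.97 with Wy-14643 at 1 day, a gap between the groups that did not pass the test (1.63, adjusted p = 0.107). At 3 days its levels were 7.28, 7.53 and 8.95 against 9.65, 10.17 and 10.25 (2.10 ± 0.60, 4.29-fold, adjusted p = 0.0416), a call that ended when any 1 rat except vehicle rat 26 was left out. At 7 days the treated rats spread from 6.13 over 7.34 to 9.00 around the vehicle rats of 7.62, 7.67 and 7.95. Top2a passed at 3 days only, at 6.75, 7.98 and 8.30 against 9.33, 9.33 and 9.81 (1.81, adjusted p = 0.0221). That call ended without vehicle rat 28 or treated rat 07 or 08. At 1 day Top2a stood at 7.20, 8.28 and 8.47 against 8.70, 9.48 and 9.65 (1.30, adjusted p = 0.0877), and at 7 days at 6.79, 6.99 and 7.43 against 6.72, 7.62 and 7.84.

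Fewer of the G1/S and replication genes rose: 6 of 16 at 1 day (median change 0.88), 5 of 16 at 3 days (0.71) and 0 at 7 days (0.19). Pcna, the sliding clamp of DNA polymerase, stood at 8.89, 9.07 and 9.29 with vehicle and at 10.15, 10.38 and 10.70 with Wy-14643 at 1 day, a change of 1.33 ± 0.19 (2.52-fold, adjusted p = 0.000683). At 3 days it stood at 9.03, 9.27 and 9.33 against 9.73, 10.11 and 10.14 (0.78 ± 0.19, 1.72-fold, adjusted p = 0.0186), a call lost without vehicle rat 28 or treated rat 07 or 08. At 7 days it stood at 9.11, 9.20 and 9.23 against 9.11, 9.14 and 9.76 (0.16, adjusted p = 0.7). The groups were apart at 1 and 3 days and overlapped at 7 days. Mcm6 rose by 2.59 ± 0.56 at 1 day (adjusted p = 0.0102), from 4.00, 5.37 and 5.89 to 7.39, 7.70 and 7.93, and by 1.96 at 3 days (adjusted p = 0.0423). The second of these calls ended when any 1 rat except vehicle rat 26 was left out.

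Rrm1, the large subunit of ribonucleotide reductase, rose by 1.56 ± 0.28 at 1 day and 1.39 at 3 days (adjusted p = 0.00328 and 0.00712). Thymidine kinase, Tk1, rose by 0.94 ± 0.16 and 1.10 (adjusted p = 0.00269 and 0.00115), although its second probe set gave -0.07 and 0.24 and did not pass. Mcm2 and Cdk4 rose at 1 day only (1.89 and 0.41, adjusted p = 0.033 and 0.0436) and Tyms, thymidylate synthase, at 3 days only (1.19, adjusted p = 0.0179). The Mcm2 call ended without vehicle rat 22 or 24 or treated rat 04 or 05, the Cdk4 call without any 1 of the 6 rats, and the Tyms call without treated rat 07 or 08. Over all alternatives Mcm2 passed in 5 of 11, Cdk4 in 6 of 12 and Tyms in 9 of 12. The probe set that Rrm2 shares with Rrm2l1 gave 2.07 at 1 day (adjusted p = 0.0781) and 2.82 ± 0.70 at 3 days (adjusted p = 0.0215), and which of the 2 genes it read cannot be told apart.

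The D cyclin Ccnd1, which carries growth signals into G1, did not pass at any time. It stood at 8.87, 8.98 and 9.04 with vehicle and 8.87, 9.43 and 9.76 with Wy-14643 at 1 day (0.39, adjusted p = 0.683). The levels were 9.01, 9.07 and 9.21 against 7.97, 8.19 and 9.27 at 3 days (-0.62, adjusted p = 0.427) and 8.28, 9.18 and 9.34 against 7.37, 8.74 and 8.99 at 7 days (-0.57, adjusted p = 0.475). The groups overlapped at each time, and its other probe sets gave 1.00 and 1.24 at 1 day and 0.20 and 0.55 at 3 days, none past the test.

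The inhibitor Cdkn1a rose by 3.52 ± 0.42 at 1 day (adjusted p = 0.000188), from 4.00, 5.51 and 5.56 to 7.99, 8.57 and 9.08. A vehicle rat lay at the floor, so the size depends on the pseudocount (1.86 to 5.17 over the alternatives). At 3 days it rose by 1.83 ± 0.42 (3.56-fold, adjusted p = 0.0139), from 5.96, 6.89 and 7.06 to 8.14, 8.59 and 8.67, and at 7 days it stood at 7.77, 7.78 and 8.15 against 7.91, 7.99 and 8.40 (0.21, adjusted p = 0.876). The treated levels lay between 7.91 and 9.08 at all 3 times, while the vehicle levels were higher at 3 and 7 days than at 1 day, so the smaller changes went with higher vehicle levels. Its second probe set gave 0.20, -1.56 and -0.96 and did not pass, and the mean of both probe sets changed by 0.14 at 3 days (adjusted p = 0.907). The call of 3 days also ended without vehicle rat 29 or treated rat 07 or 08. Cdkn1b was the 1 member that fell at 7 days, by 0.35 on the log2 scale (SE 0.09, 1.28-fold, adjusted p = 0.0205), from 8.73, 8.94 and 8.97 to 8.44, 8.54 and 8.59. Its second probe set gave -0.04, its call ended without vehicle rat 34 or 35 or treated rat 13, and 2 members passed at 7 days without vehicle rat 33 or treated rat 13.

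**Figure D2:**
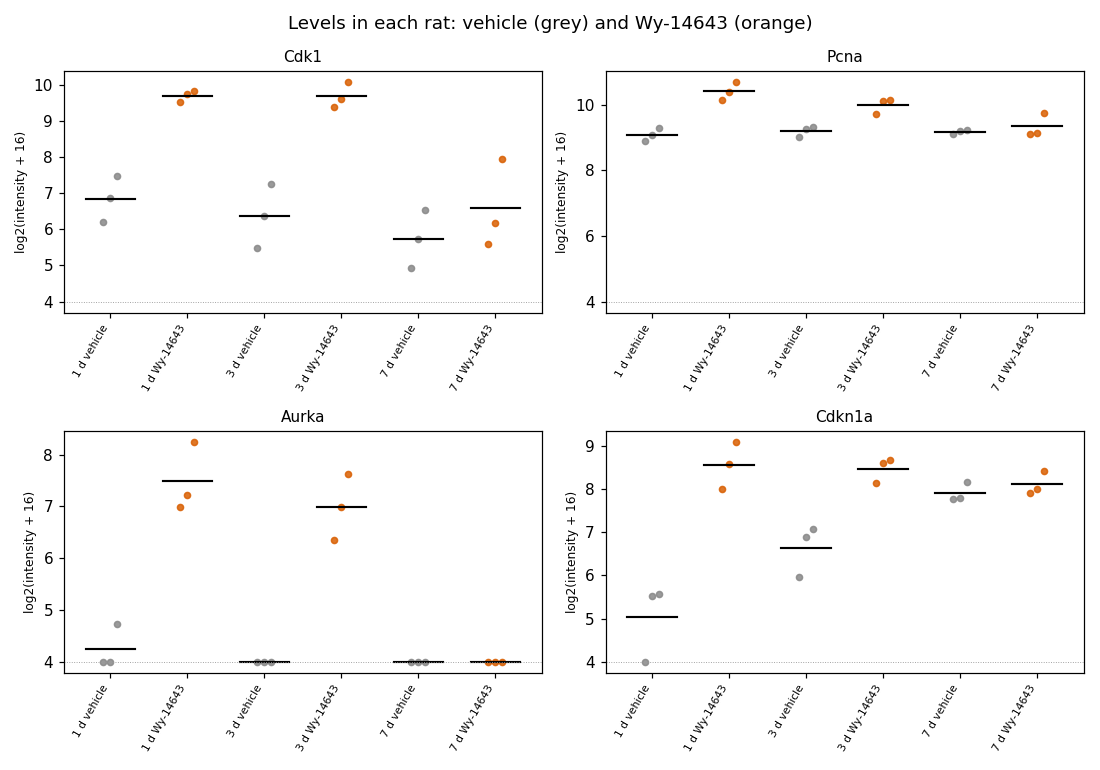
Level, log2(intensity + 16), of Cdk1, Pcna, Aurka and Cdkn1a in every vehicle (grey) and Wy-14643 (orange) rat at 1, 3 and 7 days, 3 rats a group. Black bars are group means and the dotted line is the floor of 4.00. The orange points lie above the grey points at 1 and 3 days in all 4 genes. At 7 days they overlap for Cdk1, Pcna and Cdkn1a, and all 6 rats lie at the floor for Aurka.

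The order of the groups of genes over days was read from the changes against the vehicle of the same day. Bub1b, at the floor in every rat, was left out of this order. Among the other 15 G2 and mitosis genes, 11 had a larger change at 3 days than at 1 day and 4 a larger change at 1 day, with medians of 1.56 at 1 day, 2.10 at 3 days and 0.04 at 7 days. Among 16 G1/S and replication genes, 12 had the larger change at 1 day and 4 at 3 days. These are counts of point values: in the test of 3 days minus 1 day, 0 members passed in limma (4 at an unadjusted p under 0.05), beside 0.557% of all genes. The median of that difference over all genes was 0.00. Summed intensities of the G2 and mitosis genes were 6450 to 7493 in treated rats at 1 day. At 3 days they were 5702 to 8904, an overlapping range. In vehicle rats the sums were 1679 to 2771 at 1 day and 1210 to 2455 at 3 days. A larger change at 3 days is thus not shown to be a higher treated level, and the part of the vehicle levels was not tested.

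A lower change at 7 days than before did pass for some genes. In 7 days minus 3 days, 1 member passed, Aurka, with a difference of -2.99 ± 0.47 (adjusted p = 0.0286, beside 0.0768% of all genes lower), and 19 members had an unadjusted p under 0.05. Without treated rat 13, 5 members passed, and 0 passed without vehicle rat 28, 29, 33, 34 or 35 or treated rat 06 or 12. In 7 days minus 1 day, 4 members passed, all lower, beside 0.922% of all genes. Aurka differed by -3.24 ± 0.47 (adjusted p = 0.00341) and Cdkn1a by -3.32 ± 0.59 (adjusted p = 0.012). Cks2, a small CDK-binding protein, differed by -1.54 ± 0.32 (adjusted p = 0.0292) and Pcna by -1.17 ± 0.27 (adjusted p = 0.0428), calls that 8 and 9 of the 12 removals of 1 rat ended. The Aurka differences rest on groups at the floor, so their size depends on the pseudocount. For Cdkn1a a vehicle rat of 1 day also lay at the floor (-4.95 to -2.18 over the alternatives). Its vehicle levels were higher at 7 days than at 1 day, so its difference is not a fall in treated rats alone. Without treated rat 13, 8 members passed, and 2 passed without vehicle rat 22, 33 or 35 or treated rat 05, 12 or 14. At 7 days rat 13 held the highest level of its group in 71.9% of the members, beside 34.0% of all genes.

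Other cell cycle genes, of a list of 127 measured genes outside the 43, moved on the same days. At 1 day 26 of 85 rose and 1 fell (beside 6.87% and 5.98% of all genes), among them 13 of 24 listed mitosis genes and 10 of 29 listed replication genes. The greatest changes were in Spc24 (3.27, kinetochore), Kif22 (3.04) and Kif20a (2.85), both mitotic kinesins. At 3 days 19 of 85 rose (beside 6.13% of all genes), with 12 of 24 mitosis genes and 3 of 29 replication genes, led by Kif20a (3.74), Kif22 (3.14) and Tacc3 (2.60, a spindle protein). At 7 days 1 rose and 4 fell (beside 7.11% and 7.52% of all genes), led by Gins1 (-2.39), Zwint (1.22) and Phlda3 (-1.03).

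No marker of another liver cell type passed as higher at 1 or 3 days. At 1 day 0 of the macrophage, endothelium, stellate, bile duct, lymphocyte and blood markers passed, and 2 of 11 hepatocyte markers fell. The summed intensity of the 5 bile duct markers was nonetheless higher in every treated rat of 1 day, at 301 to 395 against 252 to 279 with vehicle, and overlapped at 3 days (378 to 468 against 270 to 385). At 3 days 2 of 15 lymphocyte markers, 2 of 10 stellate markers and 4 of 11 hepatocyte markers fell, and so did 1 of 5 blood markers, whose sum was 11121 to 13506 with vehicle and 6191 to 9038 with Wy-14643. None of 7 macrophage markers passed, and their summed intensity was 3476 to 6641 in vehicle and 2762 to 3457 in treated rats. The lymphocyte markers Cd3d, Cd3g, Cd8a and Lck were at the floor. The part of these markers in the result was not tested.

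PCN raised mitotic genes in both sexes at 24 h after 1 dose. In males 3 of 22 measured members rose and 0 fell (beside 0.359% and 0.127% of all genes), all 3 of them among 9 G2 and mitosis genes, whose median change was 0.78 beside 0.07 in 11 G1/S genes. In females 6 of 22 rose and 0 fell (beside 2.28% and 1.33%), 4 of 9 G2 and mitosis genes and 2 of 11 G1/S genes, with medians of 0.90 and 0.02. The change was above 0 in 7 of the 9 mitotic genes in males and in 9 of 9 in females, and the median change over all genes was 0.00 in each sex. These 9 genes were read in the same rats, so they are not separate evidence. With only the groups compared in the fit, 0 members passed in males and 1 in females, and 3 passed in females without PCN rat 5506.

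In males Cdk1 stood at 4.00, 4.13, 4.14, 4.52 and 4.54 with vehicle and at 4.92, 5.48, 5.85, 6.15 and 6.85 with PCN (1.59 ± 0.25, n = 5 each, adjusted p = 2.54e-05). In females it stood at 4.00, 4.06, 4.19, 4.26 and 4.43 against 4.43, 4.95, 5.35, 5.49 and 5.64 (0.99 ± 0.25, adjusted p = 0.0111). Vehicle levels this near the floor make both sizes depend on the pseudocount, and no fold is given. Over the alternatives they ran from 0.69 to 3.60 in males and from 0.36 to 2.85 in females. The groups were apart in males, and in females the lowest PCN rat was level with the highest vehicle rat. The female call ended without PCN rat 5506.

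Stmn1 stood in males at 5.95, 6.08, 6.12, 6.16 and 6.47 with vehicle and at 6.81, 7.19, 7.30, 7.33 and 8.38 with PCN (1.25 ± 0.24, 2.37-fold, adjusted p = 0.000728). In females it stood at 5.69, 5.71, 5.85, 5.89 and 6.17 against 6.23, 6.84, 7.40, 7.79 and 7.85 (1.36 ± 0.24, 2.57-fold, adjusted p = 5.15e-05). Every PCN rat of 24 h was above every vehicle rat of its sex. Top2a rose by 1.74 ± 0.36 in males (3.34-fold, adjusted p = 0.00238), from 4.39, 4.62, 4.68, 4.93 and 4.97 to 4.97, 6.38, 6.43, 6.52 and 8.00, where the lowest PCN rat was level with the highest vehicle rat. Without PCN rat 5006 that call ended. In females Top2a stood at 4.21, 4.50, 4.63, 5.09 and 5.36 against 5.31, 5.55, 6.30, 6.64 and 6.72 (1.34 ± 0.36, 2.54-fold, adjusted p = 0.0143), with overlap of 1 rat. The female call ended without vehicle rat 1508 or PCN rat 5506 or 5509. Its 2 other probe sets, which did not pass, gave 0.02 and 0.56 in males and 0.03 and -0.28 in females, and the mean of the probe sets changed by 0.36 in females (adjusted p = 0.296).

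In females 3 further members rose at 24 h after PCN. Cdc20 stood at 5.47, 5.49, 6.06, 6.11 and 6.24 with vehicle and 6.59, 6.59, 6.78, 6.88 and 6.99 with PCN, with no overlap (0.90 ± 0.23, 1.86-fold, adjusted p = 0.00921). The helicase subunit Mcm7 stood at 6.46, 6.60, 6.95, 7.00 and 7.08 against 6.80, 7.37, 7.44, 7.45 and 7.76 (0.55 ± 0.13, 1.46-fold, adjusted p = 0.00311). Ccnd1 stood at 6.29, 6.40, 6.41, 6.66 and 7.21 against 6.97, 7.00, 7.62, 7.70 and 7.72 (0.81 ± 0.24, 1.75-fold, adjusted p = 0.0413), a call lost under 7 of the 10 removals of 1 rat. Those 7 were vehicle rats 1506, 1507, 1508 and 1510 and PCN rats 5506, 5507 and 5509. Pcna, read beside them, stood at 7.25, 7.29, 7.35, 7.40 and 7.60 with vehicle and at 6.74, 6.96, 6.99, 7.09 and 7.39 with PCN and did not pass (-0.35 ± 0.15, adjusted p = 0.196). In males at 24 h Ccnd1 changed by 0.57 (adjusted p = 0.471), Pcna by 0.14 and Cdkn1a by 0.00.

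At 6 h after PCN, 1 member rose in each sex, and both were G1/S genes (beside 1.37% of all genes higher and 0.676% lower in males, and 1.35% and 0.971% in females). In females it was Ccnd1, at 6.77, 6.86, 7.44, 7.85 and 7.95 with vehicle and 8.01, 8.11, 8.12, 8.12 and 8.80 with PCN, with no overlap (0.86 ± 0.24, 1.81-fold, adjusted p = 0.0348). Without vehicle rat 1502, 1503 or 1504 or PCN rat 5501, 0 members passed. In males it was Cdk2, the kinase that partners cyclin E, at 4.00, 4.00, 4.51 and 5.53 against 4.99, 5.07, 5.30, 5.48 and 5.56 (0.77 ± 0.21, adjusted p = 0.0342). With 2 vehicle rats at the floor the size of the Cdk2 change depends on the pseudocount (0.27 to 2.58 over the alternatives), and no fold is given. Without vehicle rat 1002, 1004 or 1005 or PCN rat 5002, 5003 or 5004, 0 members passed. Male Ccnd1 stood at 7.01, 7.05, 7.17 and 7.79 against 7.63, 7.83, 7.96, 8.22 and 8.25, mostly above, and did not pass (0.72 ± 0.26, adjusted p = 0.166). Cdkn1a was close to the floor in males, at 4.00 in 3 vehicle rats and 4.08 in the other, against 4.06, 4.46, 4.68, 4.71 and 4.92 with PCN (0.55 ± 0.25, adjusted p = 0.351). At 6 h Cdk1 lay at or near the floor in PCN rats of both sexes, at most 4.54.

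After 5 daily doses of PCN, 0 members passed in males in limma (3 at an unadjusted p under 0.05, beside 5.43% of all genes called) and 1 rose in females (beside 4.94% higher and 4.33% lower). In males Cdk1 stood at 4.00, 4.00, 4.00, 4.15 and 4.45 with vehicle and at 4.00, 4.07, 4.18, 4.27 and 4.66 with PCN (0.12), so the levels of 24 h were not seen there. In females Stmn1 stood at 5.51, 5.65, 5.66, 5.82 and 5.92 against 6.12, 6.38, 6.44, 6.66 and 6.66 (0.74 ± 0.24, 1.67-fold, adjusted p = 0.0364). The groups did not overlap, and yet 0 members passed without vehicle rat 1511, 1512 or 1515 or PCN rat 5511, 5512, 5514 or 5515. Female Cdk1 changed by 0.42 (adjusted p = 0.419).

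The difference between times was tested for PCN as well. The change of Cdk1 in males was 1.60 ± 0.37 higher at 24 h than at 6 h (adjusted p = 0.0346, 1 member beside 0.0845% of all genes). It was lower again at 5 days than at 24 h, by a difference of -1.47 ± 0.36 (adjusted p = 0.0493, 1 member beside 0.106% of all genes). In females the change of Stmn1 was 1.53 ± 0.34 higher at 24 h than at 6 h (adjusted p = 0.0187, 1 member beside 0.169% of all genes). From 24 h to 5 days 0 members passed in females in limma (6 at an unadjusted p under 0.05, beside 0.676% of all genes). These calls rested on single rats. The first ended without any 1 rat except vehicle rats 1001, 1007 and 1009 and PCN rats 5002, 5004, 5005, 5009 and 5010, and 2 members passed without vehicle rat 1001 or 1009 or PCN rat 5002 or 5009. The second ended without any 1 rat except PCN rats 5009, 5010 and 5013, and the third without PCN rat 5506 or 5509.

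At 24 h after PCN no marker of macrophages (5 measured), endothelium (5), stellate cells (8), bile duct (4), lymphocytes (12) or blood (5) passed in either sex. The summed intensity of the macrophage markers was 1073 to 2185 in male vehicle rats and 1091 to 2420 in male PCN rats. Csf1r was at the floor in all of these vehicle rats and not in all of the PCN rats. Other cell cycle genes that rose in males were Pttg1, or securin (2.14 ± 0.46, adjusted p = 0.0045), Foxm1, a transcription factor of mitotic genes (0.92 ± 0.22, adjusted p = 0.022), and Hmmr (0.17), 3 of 40 measured, beside 0.359% of all genes. Hmmr was at the floor in every male vehicle rat of 24 h, so its call rests on small values near the floor. In females the genes that rose were Mdm2, the ligase of p53 (1.47), and Cenpw (1.04), beside 2.28% of all genes. Mdm2 also rose in PCN males at 6 h (1.10) and 5 days (1.57) and in PCN females at 6 h (1.78) and 5 days (2.56 ± 0.21).

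**Figure D3:**
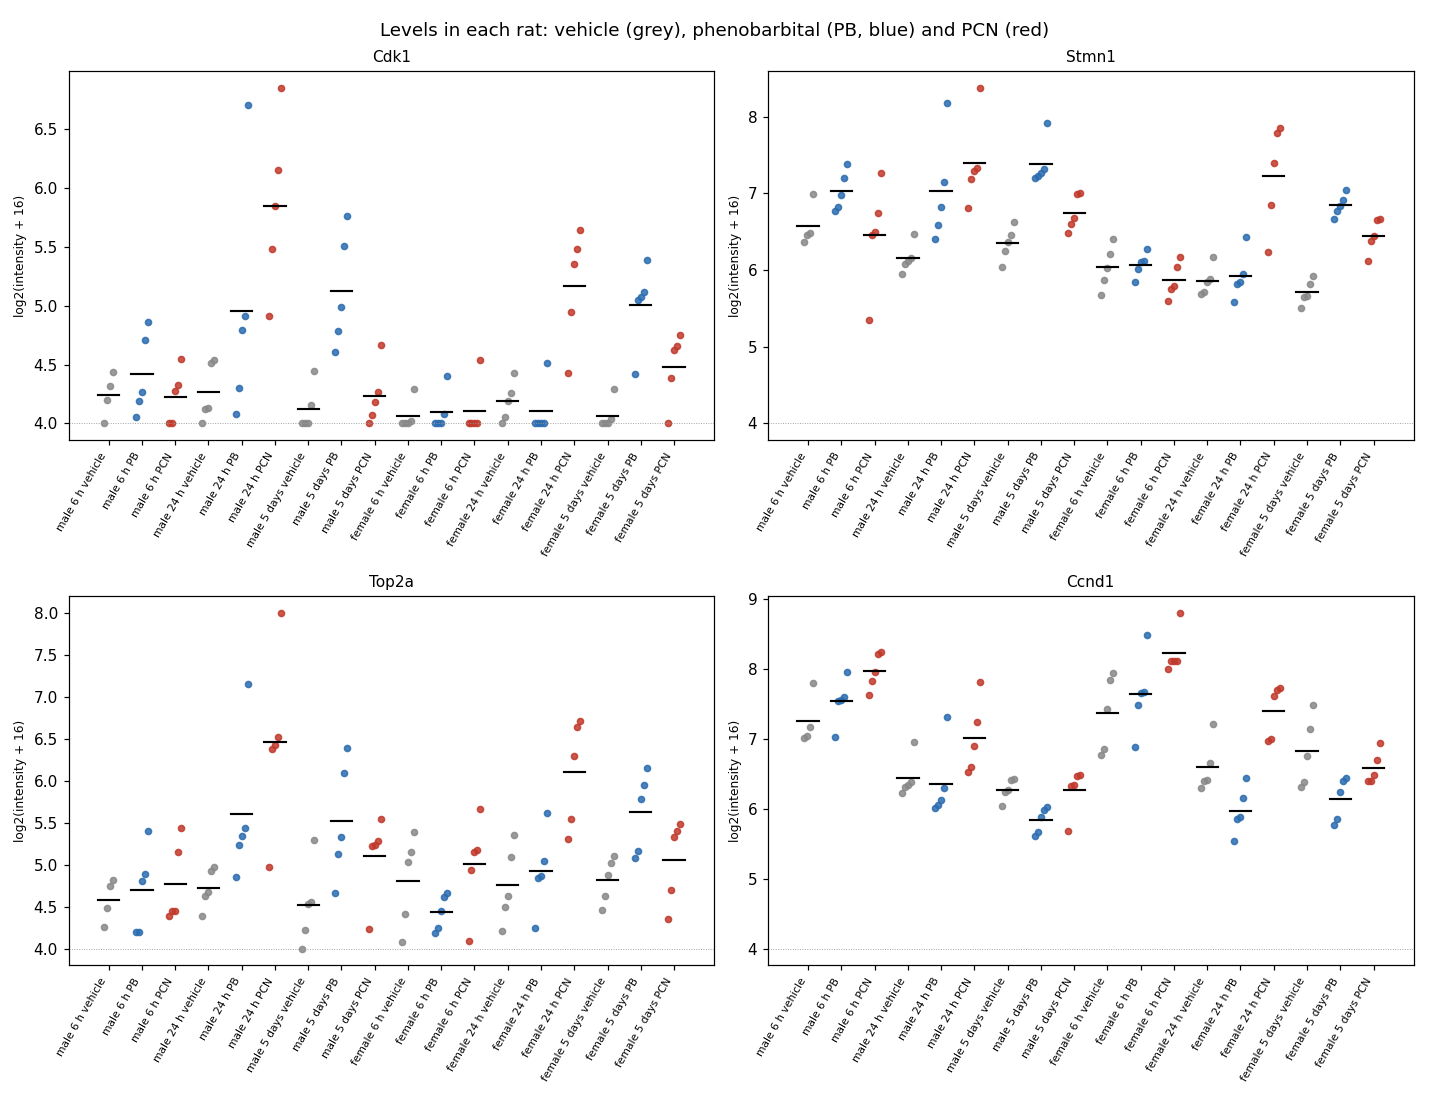
Level, log2(intensity + 16), of Cdk1, Stmn1, Top2a and Ccnd1 in every rat given vehicle (grey), phenobarbital (blue) or PCN (red), by sex and time, 5 rats a group and 4 for male vehicle at 6 h. Black bars are group means and the dotted line is the floor of 4.00. Cdk1 in PCN rats is above vehicle at 24 h in males, where it reaches 6.85, and is back near the floor at 5 days, while in phenobarbital rats it is above vehicle at 5 days in both sexes.

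Phenobarbital raised the same 2 mitotic genes, Stmn1 and Cdk1, in both sexes after 5 daily doses. In males 2 of 22 members rose and 0 fell (beside 2.83% and 2.2% of all genes). The median change in males was higher in the G2 and mitosis genes than in the G1/S genes, at 24 h as well as at 5 days. That difference was not tested. In females 2 rose and 0 fell (beside 1.46% and 1.1%). Male Stmn1 stood at 6.04, 6.25, 6.37, 6.46 and 6.63 with vehicle and 7.20, 7.23, 7.27, 7.32 and 7.92 with phenobarbital (1.04 ± 0.24, 2.06-fold, adjusted p = 0.00257). Male Cdk1 stood at 4.61, 4.78, 4.99, 5.50 and 5.76, all above the highest vehicle rat of 4.45 (1.01 ± 0.25, adjusted p = 0.00719). With 3 vehicle rats at the floor its size depends on the pseudocount (0.36 to 3.38 over the alternatives), and no fold is given. Both groups were apart from their vehicle rats for both genes. Without phenobarbital rat 4015, 4 members passed, and 1 passed without phenobarbital rat 4011.

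In females, Stmn1 stood at 6.67, 6.77, 6.84, 6.92 and 7.05 with phenobarbital after 5 days, above the vehicle range of 5.51 to 5.92 (1.14 ± 0.24, 2.2-fold, adjusted p = 0.00114). Cdk1 stood at 4.00 in 3 vehicle rats and 4.04 and 4.29 in the others, against 4.42, 5.05, 5.07, 5.12 and 5.39 (0.94 ± 0.25, adjusted p = 0.0216). The size of this change too depends on the pseudocount (0.32 to 3.48 over the alternatives), and no fold is given. Again no phenobarbital rat overlapped its vehicle group. Only 1 member passed without vehicle rat 1513 or phenobarbital rat 4511 or 4512. Ccnd1 did not pass, with changes of -0.44 in males (adjusted p = 0.362) and -0.68 ± 0.24 in females (adjusted p = 0.15). Male Pcna changed by 0.08 and Cdkn1a by 0.02. Top2a changed by 1.00 in males (adjusted p = 0.0847) and 0.81 in females (adjusted p = 0.35), neither past the test.

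At the earlier times phenobarbital gave fewer calls. In males 0 members passed at 6 h in limma, adjusted or unadjusted (beside 0.823% of all genes), and 1 rose at 24 h (beside 1.27% higher and 0.992% lower). That was Stmn1, at 6.41, 6.59, 6.82, 7.16 and 8.18 with phenobarbital (0.88 ± 0.24, 1.84-fold, adjusted p = 0.0285), where 1 phenobarbital rat lay below the highest vehicle rat. Without vehicle rat 1006, 1008 or 1010 or phenobarbital rat 4008, 0 members passed, and without phenobarbital rat 4009 Cdk1 passed (0.92, adjusted p = 0.0474) in place of Stmn1. Rat 4008 had the highest level of its group in 57.1% of the members, beside 22.3% of all genes. In that rat Cdk1 was at 6.70 where the other 4 stood at 4.08, 4.30, 4.79 and 4.91 (0.69 ± 0.25, adjusted p = 0.163).

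In females 1 member fell 6 h after phenobarbital (beside 1.46% of all genes lower and 1.22% higher). It was Cdk4, the kinase partner of D cyclins, from 7.46, 7.53, 7.55, 7.59 and 7.75 to 6.72, 7.07, 7.19, 7.32 and 7.35, with no overlap (-0.44 ± 0.10, 1.36-fold, adjusted p = 0.00217). At 24 h 0 members passed in limma (1 at an unadjusted p under 0.05, beside 4.03% of all genes). Cdk1 was at the floor in 4 of 5 phenobarbital rats there, and Ccnd1 changed by -0.62 ± 0.24 (adjusted p = 0.171). Between the times 0 members passed for phenobarbital in either sex (in limma, 0 and 0 at an unadjusted p under 0.05 in males, 3 and 2 in females). Shares of all genes in those 4 tests were 0.148% and 0.169% in males and 2.93% and 1.6% in females. Without phenobarbital rat 4507, 1 member passed in females between 24 h and 5 days.

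Phenobarbital and PCN were given at the same dose and were compared directly, as 6 pairs of sex and time that use the same treated rats as the tests above. At 24 h in females 5 members were lower with phenobarbital than with PCN, and 0 were higher (beside 2.47% of all genes lower). Ccnd1 stood at 5.54, 5.86, 5.89, 6.16 and 6.44 with phenobarbital, all under the PCN range of 6.97 to 7.72 (-1.43 ± 0.24, adjusted p = 4.7e-05). Stmn1 differed by -1.30 ± 0.24 (adjusted p = 0.000223) and Cdk1 by -1.07 ± 0.25 (adjusted p = 0.00538). Mcm7 differed by -0.56 ± 0.13 (adjusted p = 0.00289) and Top2a by -1.18 ± 0.36 (adjusted p = 0.0377), the last with probe sets that did not all show it. The Top2a call ended without phenobarbital rat 4506, 4508 or 4509 or PCN rat 5506, 5507 or 5509. In males at 24 h 0 members passed in limma (5 at an unadjusted p under 0.05, beside 1.37% of all genes). Without phenobarbital rat 4008, 3 passed there, and 1 without PCN rat 5009 or 5010.

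After 5 days in males Cdk1 was 0.89 ± 0.25 higher with phenobarbital than with PCN (adjusted p = 0.0312, 1 member beside 1.58% of all genes higher). That call ended without phenobarbital rat 4011 or 4012 or PCN rat 5012, 5014 or 5015. Whether the difference between the agents changed over time was not tested. In the remaining pairs 0 members passed in limma: at 6 h 3 had an unadjusted p under 0.05 in each sex, and after 5 days 1 in females. The shares of all genes there were 0.359% in males and 7.22% in females at 6 h, and 7.83% in females at 5 days. In females at 6 h 1 member passed without phenobarbital rat 4502, 4504 or 4505. None of the 6 tests of the change in females minus the change in males passed for any member in limma. At an unadjusted p under 0.05 there were 1, 2 and 1 members for phenobarbital at 6 h, 24 h and 5 days, and 1, 4 and 2 for PCN. The shares of all genes in these tests were at most 0.992%.

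Several genes of this study were read by probe sets that disagreed. Mcm6 is the clearest case: the probe set with the highest mean passed in 0 of the 12 phenobarbital and PCN comparisons, whereas a second probe set rose in 10 of 12, by 1.27 to 2.10. A further probe set rose in 3 of 12, by 1.84 to 2.14. The second was near the floor in vehicle rats and reached group means of 6.30 with phenobarbital and 6.25 with PCN in males at 24 h. Ccnb1 did not pass in male PCN rats at 24 h by its brightest probe set (1.00, adjusted p = 0.868) and rose by another (1.53). Ccnd1 did not pass in phenobarbital males at 5 days by the probe set used here, and 2 others fell there by 0.96 and 1.23 on the log2 scale. Stmn1 and Cdk1 each had 1 probe set.

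Few members passed with PFOA or PFOS in male rats. With PFOA at 20 mg/kg/day, 3 of 40 measured members rose and 1 fell (beside 4.77% and 3.83% of all genes), shares near those of all genes, and 0 passed with median scaling. With PFOS at 10 mg/kg/day, 1 rose and 0 fell (beside 0.387% and 0.267%). Both share the 3 vehicle rats. Ccne1, cyclin E1, whose promoter window held none of the searched letters, rose with both agents. Its levels were 4.48, 4.84 and 5.34 with vehicle, 6.25, 6.39 and 6.63 with PFOA and 7.39, 7.42 and 8.29 with PFOS, 3 ranges that did not overlap. Its change was 1.54 ± 0.31 with PFOA (n = 3 each, 2.9-fold, adjusted p = 0.0392) and 2.81 ± 0.31 with PFOS (7.02-fold, adjusted p = 0.0285). The doses differ, so the sizes are set side by side only. In PFOA minus PFOS, which for that reason is no comparison at a matched dose, 0 members passed in limma (7 at an unadjusted p under 0.05, beside 1.77% of all genes).

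Ccnd1 stood at 7.49, 7.63 and 7.98 with vehicle, 9.17, 9.31 and 9.73 with PFOA and 7.37, 8.15 and 8.66 with PFOS. It rose with PFOA (1.70 ± 0.34, 3.26-fold, adjusted p = 0.0366) with no overlap, and with PFOS the groups overlapped (0.36 ± 0.34, adjusted p = 0.755). A second probe set of Ccnd1 rose with PFOA too (2.42) and another did not pass (2.09). Ccnd3, a further D cyclin, fell with PFOA (-0.79 ± 0.15, 1.73-fold, adjusted p = 0.0309), from 7.05, 7.43 and 7.52 to 6.36, 6.56 and 6.69. Kif11, a spindle kinesin, was the only mitotic gene that rose: 6.09, 6.17 and 6.27 with vehicle against 6.61, 6.99 and 7.00 (0.69 ± 0.15, 1.61-fold, adjusted p = 0.0486). For all 4 genes the PFOA rats were apart from vehicle, and the calls still rested on single rats. Without vehicle rat R95436 or R95434 or PFOA rat R95470, 1 member passed, without PFOA rat R95472 2 passed, and without vehicle rat R95435 or PFOA rat R95471 0 passed. With PFOS 0 passed without vehicle rat R95435 or R95436 or PFOS rat R95480 or R95481.

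Cdk1 differed widely among the PFOA rats, at 4.85, 6.50 and 7.50 beside 5.20, 5.26 and 5.79 with vehicle (0.87 ± 0.65, adjusted p = 0.553). Stmn1 stood at 7.44, 7.72 and 8.11 with vehicle, 7.69, 9.40 and 9.56 with PFOA and 8.25, 8.96 and 9.65 with PFOS (1.13 and 1.20, adjusted p = 0.346 and 0.486). In both genes, and in Cdkn3 (4.70, 7.53 and 7.71) and Ccnb2 (5.97, 6.86 and 7.44), the low PFOA rat was the same, rat R95472. Pcna stood at 9.67, 9.70 and 9.91 with vehicle and 9.95, 10.25 and 10.52 with PFOA, above and not past the test (0.48 ± 0.16, adjusted p = 0.146). With PFOS it stood at 10.00, 10.28 and 10.28 (0.43, adjusted p = 0.355). Cdkn1a stood at 7.89, 7.93 and 8.27 with vehicle, 7.58, 7.72 and 7.80 with PFOA (-0.33, adjusted p = 0.735) and 6.00, 7.43 and 7.51 with PFOS (-1.05 ± 0.40, adjusted p = 0.367).

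**Figure D4:**
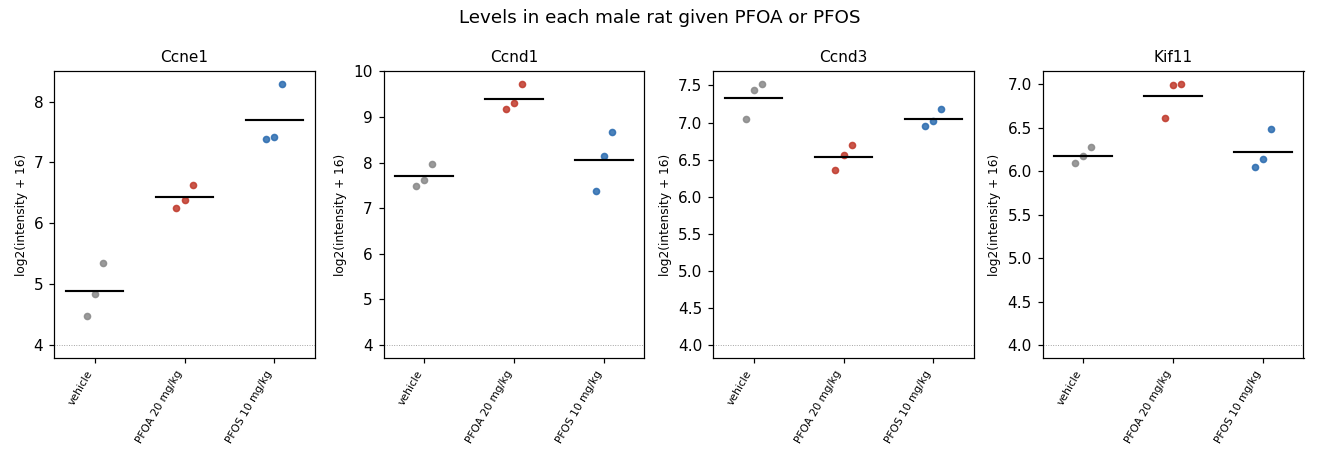
Level, log2(intensity + 16), of Ccne1, Ccnd1, Ccnd3 and Kif11 in every male rat given vehicle (grey), PFOA at 20 mg/kg (red) or PFOS at 10 mg/kg (blue), 3 rats each. Black bars are group means and the dotted line is the floor of 4.00. The 3 groups are apart for Ccne1, and for the other genes the PFOA rats stand apart from vehicle.

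The median change over the 40 members was 0.28 with PFOA and 0.18 with PFOS, beside 0.00 over all genes for each. Of 125 other cell cycle genes, 5 rose and 1 fell with PFOA, not above the shares of all genes (4.77% and 3.83%). The greatest changes were in the stress genes Gadd45b (5.79 ± 0.57) and Gadd45a (3.11) and in Wee1 (1.92), a kinase that holds Cdk1 inactive. With PFOS 0 of the 125 passed in limma (12 at an unadjusted p under 0.05). Other cell type markers moved in the PFOA rats, and their part in the result was not tested. Of 8 endothelium markers 2 fell, with summed intensities of 5549 to 7097 in vehicle and 3829 to 4348 in PFOA rats. Of 10 stellate markers 2 fell (4452 to 5972 against 3100 to 3657) and of 5 bile duct markers 1 rose (292 to 434 against 747 to 874). The sums of 16 lymphocyte markers (806 to 887 against 461 to 648) and 11 hepatocyte markers (104133 to 107204 against 85179 to 98142) were also lower with no overlap.

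The D3T diet lowered 1 member and raised 0 of 22 (beside 8.28% of all genes lower and 5.09% higher). Ccnd1 fell from 7.46, 7.73, 7.86 and 7.92 on the control diet to 6.65, 6.99, 6.99 and 7.10, with no overlap (-0.81 ± 0.14, n = 4 each, 1.75-fold, adjusted p = 0.0134). Its other probe sets gave -0.55, -0.04, 0.40 and -0.16 and did not pass, and the mean over its probe sets changed by -0.23 (adjusted p = 0.537). Mitotic genes stood higher and did not pass. Cdk1 was at 4.66, 4.99, 5.78 and 6.32 against 4.00, 4.14, 4.26 and 4.45 (1.22 ± 0.38, adjusted p = 0.0892). Top2a was at 5.44, 5.90, 5.97 and 6.73 against 4.52, 4.62, 4.65 and 5.58 (1.17 ± 0.35, adjusted p = 0.0828).

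All 4 D3T rats were above the control rats for Cdk1, and for Top2a 1 control rat lay above the lowest D3T rat. Stmn1 overlapped, at 5.97, 6.30, 6.64 and 7.27 against 6.71, 6.77, 6.95 and 7.23 (-0.37), and so did Pcna, at 6.56, 6.63, 6.72 and 6.76 against 6.57, 6.72, 7.06 and 7.12 (-0.20). Cdkn1a was at the floor in all control rats and in 3 of 4 D3T rats. The median change was 0.50 in the G2 and mitosis genes and 0.04 in the G1/S genes. Without control rat 1, 3 members passed, and without control rat 2 or 4, 2 passed. Of the other cell cycle genes 3 rose (beside 5.09% of all genes), Pold1 (1.87, a DNA polymerase subunit), Cdkn2b (1.44) and Cdkn1c (0.65), both CDK inhibitors. Markers of several cell types moved as well. Of the hepatocyte markers 5 of 11 fell, with summed intensities of 61672 to 64014 on the control diet and 55077 to 57980 with D3T. Sums were lower with no overlap for 5 macrophage markers (1344 to 1728 against 974 to 1240, 2 fell), 5 endothelium markers (403 to 447 against 176 to 329, 1 fell), 8 stellate markers (1081 to 1457 against 712 to 1029, 1 fell) and 5 blood markers (5016 to 7088 against 3680 to 4767, 1 fell). The sum of 4 bile duct markers was higher (66.3 to 101 against 102 to 113), with none past the test, and that of 12 lymphocyte markers overlapped. The part of these markers in the result was not tested.

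PFOS for 3 weeks in 2 female rats gave 0 calls among 22 members in limma (3 at an unadjusted p under 0.05), and 0% of all genes passed. The median change was -0.36 in the G2 and mitosis genes and -0.03 in the G1/S genes. Cdk1 was at 4.28 and 4.60 with vehicle and at the floor in both PFOS rats (-0.44 ± 0.15, adjusted p = 1). Stmn1 was at 5.44 and 5.95 against 4.94 and 5.33 (-0.56) and Top2a at 5.46 and 5.51 against 4.90 and 5.24 (-0.41), lower in both treated rats. Ccnd1 was at 6.23 and 6.47 against 6.33 and 6.94 (0.28), Pcna at 7.08 and 7.33 against 6.47 and 7.28 (-0.33), and Cdc20 at 5.85 and 6.19 against 5.93 and 6.11, all overlapping. Cdkn1a was at the floor in all 4 rats.

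**Figure D5:**
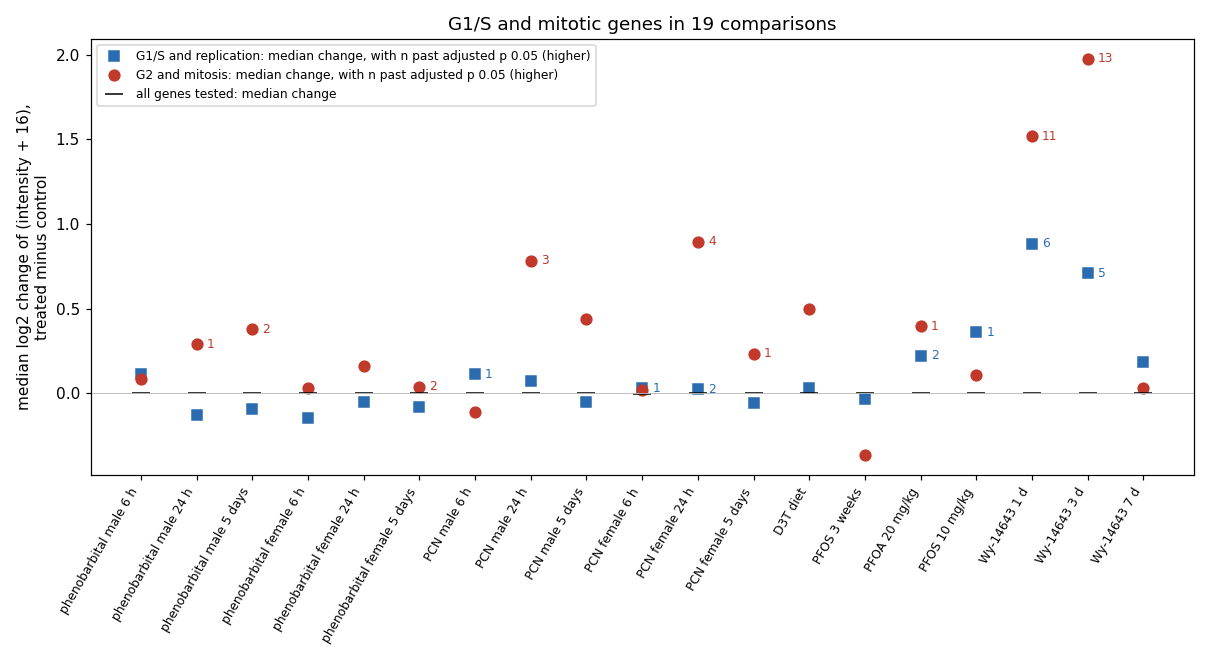
Median log2 change (treated minus its own control) over the G1/S and replication genes (blue squares), the G2 and mitosis genes (red circles) and all genes tested (black dashes) in the 19 comparisons, with the number of members that rose at adjusted p 0.05 beside each point where it is above 0. The red circle is above the blue square in PCN at 24 h (0.78 and 0.90 beside 0.07 and 0.02) and in Wy-14643 at 1 and 3 days (1.52 and 1.98 beside 0.88 and 0.71). It is above in other comparisons too, among them phenobarbital in males at 24 h and 5 days and the D3T diet.

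Across the 19 comparisons Stmn1 passed in 7, Cdk1 in 6, Ccnd1 in 4, and Cdc20 and Top2a in 3 each, and these 5 genes were measured in all 19. The comparisons share vehicle rats and arrays, and the counts are a description. The genes whose 19 changes ran most like those of Cdk1, among 4491 genes measured in all of them, were Tubb5, a tubulin (Pearson r 0.88), Hmmr, a spindle protein (0.86), Tcap (0.86), Bbip1 (0.85) and Kifc1, a mitotic kinesin (0.85). Of the 20 members on all 3 array types, the mitotic genes had r with Cdk1 of 0.92 for Cdc20, 0.84 for Aurkb, the kinase of the chromosomal passenger complex, 0.75 for Top2a, 0.73 for Stmn1, 0.67 for Ccnb1, 0.09 for Plk1 and -0.01 for Bub1b. Among the G1/S genes r was 0.75 for Mcm6, 0.74 for Tyms, 0.69 for Cdk4, 0.63 for Pcna and 0.56 for Ccnd3. It was 0.29 for Ccne1, 0.21 for Mcm5, 0.06 for Ccnd2, 0.03 for Mcm7 and -0.18 for Ccnd1, and of the inhibitors 0.72 for Cdkn1a and -0.20 for Cdkn1b. Both role groups thus held genes at high and at low r. The points of these correlations share libraries and controls, and the Wy-14643 comparisons hold the greatest changes.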

How the data were processed

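RNA of 129 rat livers was read on Affymetrix arrays of 1 colour. The authors deposited 1 linear intensity per probe set and array, with values below 0; how these intensities were summarised and scaled is not given in the sources used here. Arrays were quantile-normalised within a study unless their medians spanned under 0.5 log2 units, as in the PFOS study of 3 weeks. Intensities below 0 were set to 0, and log2(intensity + 16) entered limma 3.58.1 (R 4.3.3), with 1 mean per group of a study, two-sided contrasts, empirical Bayes, and Benjamini-Hochberg adjustment over all probe sets of the array. No filter was set on low values, and control probe sets were left out. A gene was read from the probe set of the highest mean among those annotated to it alone, with symbols updated through RefSeq. There were 43 comparisons: 19 against control, 11 between times, 6 between sexes and 7 between agents.

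The members, the gene lists and the tests were chosen with earlier results of these data known. Every member could be named. Up to 8 of the greatest changes past the threshold in a comparison, and Cdk1, Ccnd1, Pcna and Cdkn1a in each, were to be given with statistics, and up to 3 of the other cell cycle genes. The alternatives were pseudocounts of 1 and 64, median scaling, the dimmest 33.3% of probe sets left out, only the compared groups fitted, rat 1003 kept, all probe sets of a gene averaged, and each rat left out in turn. The fit was tested on simulated data. The number of arrays limits the precision.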

Additional observations from a re-analysis of the deposited data

Results flagged for a closer look

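In 140 pairs of gene and group, over 7 genes (Cdk1, Ccnd1, Stmn1, Pcna, Cdkn1a, Cdc20 and Top2a) and groups of 4 or 5 rats, the highest or lowest rat stood apart from the rest of its group by Dixon's 95% criterion in 21. Chance alone sets apart about 1 in 20 groups where values are continuous and normally spread. That rate does not hold for groups with rats at the floor, so the count of 21 cannot be set against it. Male phenobarbital rat 4008 of 24 h was the highest in 3 of them, with levels of 7.31 for Ccnd1, 8.06 for Cdc20 and 7.16 for Top2a. Further high rats were PCN female 5501 at 6 h (Ccnd1, 8.80), vehicle male 1009 at 24 h (Ccnd1, 6.96) and phenobarbital male 4011 at 5 days (Stmn1, 7.92). Control rat 1 of the D3T study was high for Top2a (5.58). Low rats were PCN male 5013 (Ccnd1, 5.69) and PCN male 5014 (Top2a, 4.23), both of 5 days.

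The other 12 lay in groups of Cdk1 or Cdkn1a where most rats were at or near the floor level of 4.00. For Cdk1 these were PCN female 5503 at 6 h (4.54), phenobarbital female 4507 at 24 h (4.51), phenobarbital female 4503 at 6 h (4.40), vehicle female 1514 at 5 days (4.29) and vehicle female 1502 at 6 h (4.29). For Cdkn1a they were D3T rat 3 (4.47), PCN female 5507 at 24 h (5.09), phenobarbital female 4506 at 24 h (4.46) and phenobarbital female 4501 at 6 h (5.19). Vehicle rats 1509 (female, 24 h, 4.04), 1504 (female, 6 h, 4.45) and 1002 (male, 6 h, 4.08) complete the list.

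A change differed between times for Cdk1 in PCN males (24 h minus 6 h, 1.60, and 5 days minus 24 h, -1.47) and for Stmn1 in PCN females (24 h minus 6 h, 1.53). With Wy-14643 it differed for Aurka (7 days minus 3 days, -2.99, and 7 days minus 1 day, -3.24), and in 7 days minus 1 day for Cdkn1a (-3.32), Cks2 (-1.54) and Pcna (-1.17). The probe set shared by Rrm2 and Rrm2l1, which belongs to no single gene, rose by 2.82 after 3 days of Wy-14643.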

How the results depend on the processing

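No change past the threshold turned its direction under any alternative run. Of 138 changes followed, 27 turned sign in 55 fits, none of them past the threshold in either fit, and all in Cdk1, Ccnd1, Pcna or Cdkn1a. With rat 1003 kept, Cdkn1a and Pcna changed by -0.20 and -0.29 in phenobarbital males at 6 h, and Cdk1, Cdkn1a and Pcna by 0.038, -0.033 and -0.30 in PCN males at 6 h. With all probe sets averaged, Ccnd1 changed by 0.098 in phenobarbital males at 24 h, 0.038 and 0.047 in PCN males and females at 5 days, -0.14 with PFOS of 3 weeks and 0.043 with Wy-14643 at 3 days. Pcna then changed by -0.081 in PCN males at 5 days, -0.029 in PCN females at 6 h and 0.12 with D3T, and Cdkn1a by -0.38 with Wy-14643 at 7 days. Pseudocount 1 gave Cdkn1a 0.18 and -0.22 in phenobarbital males at 24 h and 5 days and 0.11 in PCN females at 6 h, pseudocount 64 gave it -0.0052 in PCN males at 24 h, and median scaling gave Cdk1 0.0021 in PCN males at 6 h. With each rat left out in turn the changes ran over both signs, in phenobarbital males at 24 h from -0.33 to 0.040 (Ccnd1), -0.15 to 0.10 (Cdkn1a) and -0.25 to 0.12 (Pcna), and at 5 days from -0.18 to 0.17 (Cdkn1a). In phenobarbital females they ran from -0.042 to 0.091 (Cdk1, 6 h), -0.091 to 0.24 (Cdkn1a, 6 h), -0.0087 to 0.11 (Cdkn1a, 24 h) and -0.16 to 0.022 (Pcna, 5 days). In PCN males the ranges were -0.089 to 0.056 (Cdk1, 6 h), -0.13 to 0.17 (Cdkn1a, 24 h), -0.013 to 0.26 (Pcna, 24 h), -0.073 to 0.13 (Ccnd1, 5 days) and -0.018 to 0.055 (Pcna, 5 days), and in PCN females at 6 h -0.061 to 0.10 (Cdk1) and -0.051 to 0.061 (Cdkn1a). They were -0.021 to 0.59 (Ccnd1) and -0.74 to 0.072 (Pcna) with PFOS of 3 weeks, and -0.054 to 0.27 (Pcna) with Wy-14643 at 7 days.

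The counts below are members past adjusted p 0.05 in limma, where an alternative moved the count by over 1.5 times. With only the compared groups fitted, 0 passed for phenobarbital in males at 24 h and females at 6 h, for PCN in males at 6 h and 24 h and in females at 6 h, for Wy-14643 at 7 days, for all 3 PCN time differences that had passed, and for phenobarbital minus PCN in males at 5 days. 1 passed for phenobarbital in males at 5 days and for PCN in females at 24 h, 2 for PFOA and for phenobarbital minus PCN in females at 24 h (2 over all agent pairs, against 6), and 8 for Wy-14643 at 3 days. Counts rose to 1 and 2 for phenobarbital in females at 24 h minus 6 h and at 5 days minus 24 h. With pseudocount 1, 0 passed for PCN at 6 h in both sexes and for PCN males at 24 h minus 6 h and 5 days minus 24 h, and 1 for PFOS of 3 weeks and for phenobarbital females at 5 days minus 24 h. With pseudocount 64, 1 passed for phenobarbital females at 5 days, and 0 for PCN females at 5 days, PCN males at 5 days minus 24 h and phenobarbital minus PCN in males at 5 days. Median scaling gave 0 for PCN females at 5 days, PCN males at 24 h minus 6 h and PFOA, 1 for phenobarbital minus PCN in males at 24 h, and 2 for D3T. Leaving out the dimmest probe sets gave 1 for phenobarbital at 5 days in each sex, 0 for PCN males at 6 h, at 5 days minus 24 h and for phenobarbital minus PCN in males at 5 days, 4 for D3T and 2 for PFOS at 10 mg/kg. The counts that fell there had lost Cdk1 or Cdk2, which were among the probe sets left out and so were not tested. With rat 1003 kept, 3 passed for PCN males at 6 h, and 0 for PCN females at 6 h and PCN males at 5 days minus 24 h. With all probe sets of a gene averaged, 2 passed for phenobarbital males at 24 h, PCN at 6 h in each sex and PCN females at 5 days, 1 for phenobarbital minus PCN in females at 6 h, and 0 for PCN males at 5 days minus 24 h and Wy-14643 at 7 days. Quantile normalisation of the PFOS study of 3 weeks moved no count. The cause of the other differences was not tested.

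Leaving out each rat in turn gave ranges of 0 to 1 member for phenobarbital males at 24 h, PCN at 6 h in each sex, PCN females at 5 days and PFOS at 10 mg/kg. They were 1 to 4 and 1 to 2 for phenobarbital males and females at 5 days, 2 to 4 and 3 to 6 for PCN males and females at 24 h, 1 to 3 for D3T and 0 to 2 for PFOA. For Wy-14643 they were 12 to 17, 11 to 19 and 0 to 2 at 1, 3 and 7 days, 0 to 5 at 7 minus 3 days and 2 to 8 at 7 minus 1 days. For the PCN time differences they were 0 to 2 (males, 24 h minus 6 h) and 0 to 1 (males, 5 days minus 24 h, and females, 24 h minus 6 h), and 0 to 1 for phenobarbital females at 5 days minus 24 h. For phenobarbital minus PCN they were 0 to 3 in males at 24 h, 0 to 1 in males at 5 days, 0 to 1 in females at 6 h and 4 to 5 in females at 24 h. Over all time differences the range was 5 to 16 (against 8), over all agent pairs 5 to 9 (against 6), and over all sex differences 0.

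The D3T replicate numbers were tested as a block, with 0 members past the threshold (against 1). The deviations of same-numbered rats correlated at 0.28, -0.08, -0.10 and -0.22, so the numbers gave no sign of a pairing. Many vehicle levels of Cdk1, Cdkn1a and Aurka lay at the floor, where depth of signal bounds any change, and groups of 2 or 3 rats bound the rest. Counts of calls in studies with different group sizes and array types do not compare the agents.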
